A study of Ovis aries with 30 samples.

Results

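The 10 genes described here belong to the bone morphogenetic protein (BMP) pathway: the ligands BMP2, BMP4, BMP7 and BMP8B, the receptors BMPR1A, BMPR2 and ACVR1, the inhibitors SMAD6 and GREM1, and the target gene ID1. They were taken by name from the table of read counts, and all 10 were found among its 28524 genes. In BAT, ID1 and SMAD6 were more than 2 times as high in lambs kept in the cold as in lambs kept at ambient temperature. None of the 4 ligands and 3 receptors among the 10 genes passed the test in that comparison. Outside the 10 genes, the ligand BMP6 and the co-receptor ENG did pass. The calls depended on the libraries in the fit: with a control lamb added that the authors had left out, 0 of 14940 genes passed in BAT. In thyroid tissue none of the 10 genes passed the test for cold against ambient temperature.

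BMP ligands are secreted dimers that bind a complex of type I and type II serine/threonine kinase receptors, which phosphorylates the transcription factors SMAD1, SMAD5 and SMAD9. With SMAD4 these enter the nucleus and switch on target genes, among them the ID genes and the inhibitory SMAD6 and SMAD7, so that the pathway limits itself. In adipose tissue, BMP7 and BMP8B are known for promoting brown adipocytes and their heat production, whereas BMP2 and BMP4 are known for committing precursor cells to the adipocyte lineage. The same pathway acts on the endothelial cells of blood vessels, where ENG is a co-receptor.

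RNA was sequenced from brown adipose tissue (BAT) around the kidneys and from thyroid tissue of 15 newborn Romney lambs, 1 library per tissue and lamb. The lambs were 6 kept indoors for 2 days at 4 °C (cold), 6 kept indoors for 2 days at 20 to 22 °C (ambient temperature, AT) and 3 from which tissue was taken without any stay indoors, about a day after birth (controls). Cold against AT therefore compares lambs of 1 age, whereas in each comparison with the controls the 2 days and the housing cannot be told apart from the temperature. All were born as twins, with 1 lamb taken per ewe. The samples were bulk tissue, in which fewer cells of a type and less RNA per cell cannot be told apart.

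The libraries held 31556500 to 37025998 counts in BAT and 25062784 to 30124871 in thyroid tissue, but 2 genes took 43.8 to 76.5% of the counts in BAT and 5.18 to 27.8% in thyroid tissue. Values below are normalized counts, the deposited counts divided by a size factor from the reference genes ACTB, RPL19 and HUWE1, and differences are log2 fold changes (log2FC) with their standard error from edgeR's quasi-likelihood test. A gene passed the test at a Benjamini-Hochberg adjusted p under 0.05 over all genes tested, which needed 10 or more reads in 10 or more libraries. One control lamb, left out of both tissues by the authors, was left out here too. It is called Control 2, and its value is given beside those of Control 1 and Control 3 where it decides a result. Normalized on both tissues together, the summed adipocyte markers were 51077 to 204442 in BAT and 1304 to 8660 in thyroid tissue, and the summed thyrocyte markers were 223 to 2640 and 863288 or more, so that each tissue carried its markers. Brown adipocyte markers in BAT were lowest in AT 6 (sum 631 within BAT, against 4677 or more in the cold lambs), and that library also had the highest sum of stromal markers, 190628. In thyroid tissue, skeletal muscle markers summed to 3.41e+06 in AT 3 and 297736 in Control 1 but to 3962 or less in the cold lambs.

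The genes lie on 5 chromosomes of the Oar_rambouillet_v1.0 assembly used by the authors. The ligands lie at chr13:51168039-51180602 (BMP2), chr7:68683178-68690279 (BMP4), chr13:61207542-61290105 (BMP7) and chr1:14944673-14975875 (BMP8B). The receptors lie at chr25:43255758-43400016 (BMPR1A), chr2:218711850-218857588 (BMPR2) and chr2:163809351-163948944 (ACVR1). SMAD6 lies at chr7:14456246-14533727, GREM1 at chr7:29687553-29700414 and ID1 at chr13:63520396-63521551. Reads were counted over the exons of each gene. The span of BMP8B overlaps OXCT2 and that of BMPR1A overlaps LOC114110893, but in both cases the genes share 0 exon bases.

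Per kilobase of exon, ID1 was the most abundant of the 10 genes in BAT, in all 14 libraries above BMP4, the next. In BAT the median over the 14 libraries was 4038 normalized counts per kilobase for ID1, 353 for BMP4, 268 for SMAD6, 224 for ACVR1 and 102 for BMPR1A. The remaining medians in BAT were 41.5 for BMP2, 30.4 for BMPR2, 23.2 for BMP7, 20.6 for BMP8B and 9.53 for GREM1. BMP4 was thus the most abundant of the 4 ligands in BAT. BMPR2, a type II receptor for BMP ligands, was the lowest of the 3 receptors. The orders per kilobase, here and in thyroid tissue, rest on the annotated exons (3231 bases for BMPR2, 1780 for BMP7 and 1785 for BMP8B). Reads from parts of a transcript outside these exons were not counted. ACVR1 stood above BMPR1A and BMPR1A above BMP2 in all 14 libraries. The other neighbours changed places between libraries. BMP4 was above SMAD6 in 9 and SMAD6 above ACVR1 in 9, BMP2 was above BMPR2 in 10, BMPR2 above BMP7 in 7, BMP7 above BMP8B in 8 and BMP8B above GREM1 in 11.

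In thyroid tissue the median per kilobase was 561 for ACVR1, 546 for ID1, 321 for BMP7, 238 for BMPR1A and 61.0 for SMAD6. It was 42.2 for BMP2, 40.8 for BMP4, 12.9 for BMPR2, 9.22 for BMP8B and 2.18 for GREM1. BMP7 was the most abundant of the 4 ligands there. ACVR1 and ID1 could not be ordered, with ACVR1 the higher in 8 of 14 libraries, and in Control 1 and Control 3 ID1 was the higher, at 1908 and 5280 against 632 and 947. BMP7 was above BMPR1A in 11 libraries, BMP2 above BMP4 in 9 and BMPR2 above BMP8B in 10, while BMPR1A was above SMAD6 and SMAD6 above BMP2 in all 14. GREM1 had 10 or more counts in 4 of the 14 libraries, so it was not tested within thyroid tissue.

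In BAT, the comparison of cold with AT lambs asks what 2 days at the lower temperature changed at the same age. ID1, a helix-loop-helix protein that blocks other transcription factors and a direct target of BMP signalling, had a lowest, median and highest normalized count of 720, 1429 and 1682 in the AT lambs and of 2591, 3671 and 4015 in the cold lambs. The groups did not overlap, and the controls were at 2498 (Control 1), 4148 (Control 3) and 899 (Control 2). The log2FC was 1.39 ± 0.21, a 2.62-fold difference (adjusted p = 0.0198). SMAD6, which competes with the receptor-activated SMADs, had 180, 320 and 427 normalized counts in the AT lambs and 517, 665 and 779 in the cold lambs. Again every cold lamb was above every AT lamb, and the controls used had 496 and 662, with 163 in Control 2. The log2FC was 1.11 ± 0.21, a 2.16-fold difference (adjusted p = 0.0370).

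**Figure D1:**
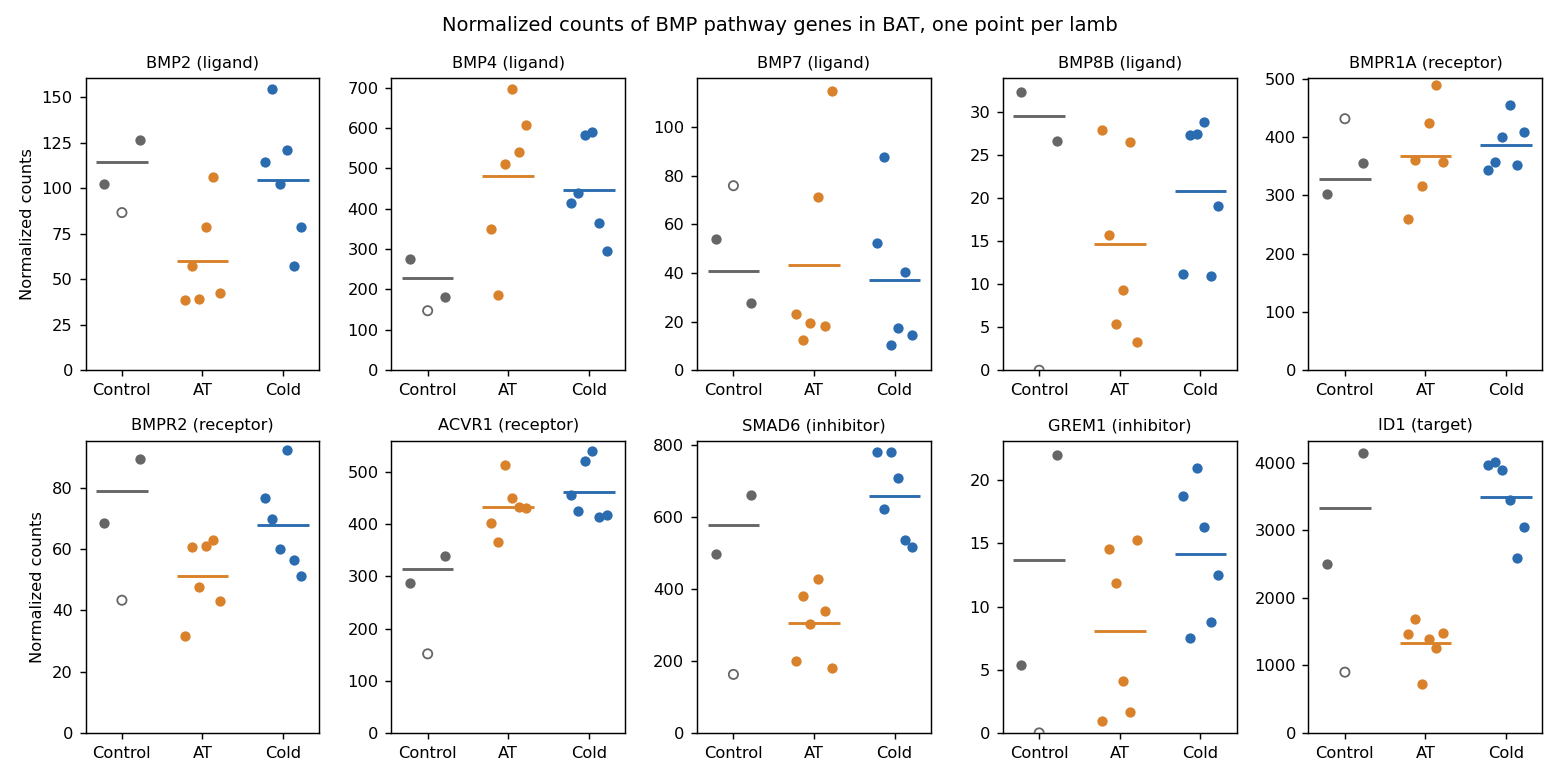
Normalized counts (y axis, linear, from 0) of the 10 genes in BAT by treatment group (x axis), 1 point per lamb, with a horizontal line at the mean of the libraries used and an open point for the control that was left out. For SMAD6 and ID1 every cold lamb lay above every AT lamb (517 against 427 and 2591 against 1682 at the nearest), while for the other 8 genes the groups overlapped.

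These 2 of the 10 genes passed the test and both were higher in the cold lambs, against 46 of 14905 genes tested (0.309%, of which 0.215% higher and 0.0939% lower in the cold lambs). The median log2FC of the 10 genes was 0.49 and that of all genes tested -0.05. Among all genes tested, 0.691% showed no overlap between cold and AT lambs, 0.537% with the cold lambs higher.

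The ligands did not pass the test. BMP2 had a lowest, median and highest value of 38.5, 49.9 and 106 in AT and of 57.1, 108 and 155 in cold lambs, so that the groups overlapped. Its log2FC was 0.81 ± 0.29 with an unadjusted p of 0.0140 and an adjusted p of 0.305. BMP8B, at 3.28 to 27.9 in AT and 10.97 to 28.8 in cold lambs, had a log2FC of 0.56 ± 0.47, with a 95% interval of -0.35 to 1.48. BMP4 had a log2FC of -0.11 ± 0.27 and BMP7 of -0.25 ± 0.60. BMP7 varied most within groups, from 12.3 to 115 in AT and from 10.5 to 87.6 in cold lambs, with the highest AT value in AT 6.

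The receptors did not pass either. BMPR1A, a type I receptor for BMP2 and BMP4, had a log2FC of 0.07 ± 0.15, with a 95% interval of -0.22 to 0.37. ACVR1, a type I receptor that also binds BMP7, had a log2FC of 0.10 ± 0.13, with an interval of -0.15 to 0.34. BMPR2 was at 31.7 to 63.0 in AT and 51.4 to 92.3 in cold lambs, with a log2FC of 0.41 ± 0.23 and an interval of -0.04 to 0.85. GREM1, a secreted antagonist that binds BMP2 and BMP4, was at 0.962 to 15.3 in AT and 7.53 to 20.9 in cold lambs, at 1 to 28 counts per treated lamb, and its log2FC was 0.68 ± 0.54.

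Of 47 further genes of the pathway, 45 were in the table and 30 were tested in BAT. Of these 30, 6 were higher in the cold than in the AT lambs, 0 were lower and 24 did not pass the test. Their median log2FC was 0.23. Among all genes tested, 0.215% were higher and 0.0939% lower. BMP6, a ligand known for its part in iron balance, had 113 to 335 normalized counts in AT and 423 to 877 in cold lambs (log2FC 1.39 ± 0.25, adjusted p = 0.0318). ENG, the co-receptor endoglin, had 2647 to 7182 in AT and 7879 to 16927 in cold lambs (log2FC 1.40 ± 0.23, adjusted p = 0.0201). The other inhibitory SMAD, SMAD7, had 146 to 318 in AT and 347 to 782 in cold lambs (log2FC 1.40 ± 0.22, adjusted p = 0.0198). The remaining 3 were the target genes ID2, with a log2FC of 1.22 ± 0.20, MSX1, with 1.04 ± 0.16, and ID3, with 0.99 ± 0.19. For all 6 genes the cold and AT lambs did not overlap. Sorted by role, 1 of 2 further ligands tested (BMP6 and not BMP5), 1 receptor, 1 inhibitor and 3 target genes passed. None of the 4 SMADs that carry the signal did: SMAD9 had a log2FC of 1.05, SMAD1 of -0.65, SMAD5 of 0.19 and SMAD4 of 0.12. For SMAD9, however, every cold lamb was above every AT lamb, with a median normalized count of 45.7 in cold and 19.5 in AT lambs. The extracellular antagonists FST and CHRDL1 had the lowest values among the inhibitors, with a log2FC of -1.16 and -1.19 that did not pass.

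**Figure D2:**
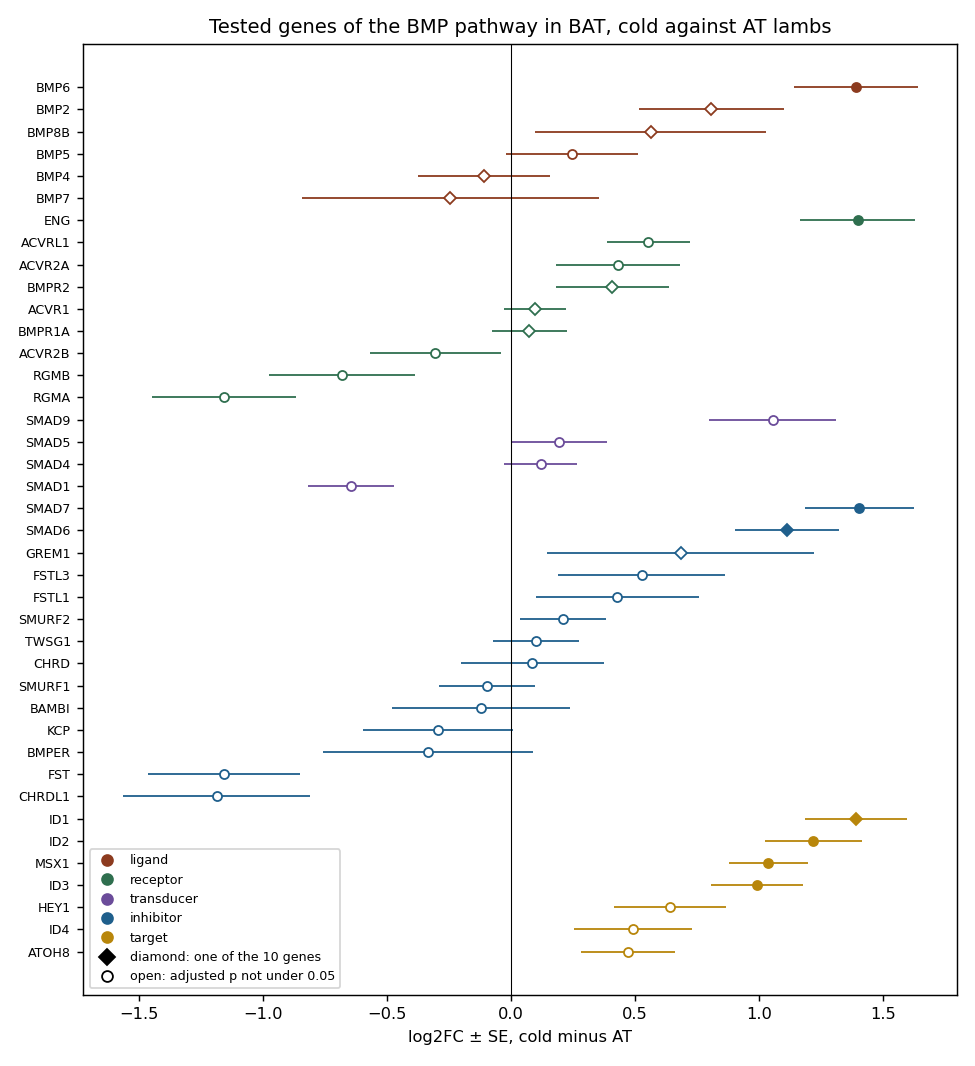
log2FC with its standard error (x axis, cold minus AT) of the 40 tested genes of the pathway in BAT, coloured by role and sorted within it, with diamonds for the 10 genes and filled symbols for an adjusted p under 0.05. The 8 filled symbols are BMP6, ENG, SMAD7, SMAD6, ID1, ID2, MSX1 and ID3, and all lie between 0.99 and 1.40.

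The calls depended on the libraries that set the spread. With Control 2 added, which is in neither group compared, the log2FC of ID1 remained 1.39 but its adjusted p was 0.125, and SMAD6 had 1.11 with an adjusted p of 0.246. In that fit 0 of 14940 genes passed, with 1181 at an unadjusted p under 0.05, whereas DESeq2's Wald test with the 2 controls called 261 of 14905. ID1 missed the threshold in 5 of 22 alternatives, also with Control 2 in place of Control 1 (adjusted p = 0.191) or of Control 3 (adjusted p = 0.0731), without AT 5 and without Cold 4, and its log2FC stayed between 1.27 and 1.47. SMAD6 missed it in 13 of 22 alternatives, and its log2FC stayed between 0.98 and 1.25. Endothelial markers, whose cells use this pathway, summed to 57155 to 77069 in AT and 56023 to 91058 in cold lambs, and 0 of 10 passed. Markers of smooth muscle and pericytes summed to 10797 to 21503 in AT and 18002 to 35379 in cold lambs, 0 of 7 passed, and all 7 had a log2FC above 0 (median 0.79). The part of these cells in the differences was not tested.

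Against the controls, the same genes were lower in the BAT of AT lambs. ID1 had a log2FC of -1.32 ± 0.27 (adjusted p = 0.00963), 2.49-fold lower than in the controls, and SMAD6 of -0.93 ± 0.28 (adjusted p = 0.0470), 1.91-fold lower. These were 2 of 10 genes, both lower, whereas 1386 of 14905 genes passed (9.3%, of which 6.15% lower and 3.15% higher). In Control 2, ID1 was at 899 and SMAD6 at 163, within or below the AT range, so that with all 3 controls the log2FC was -0.83 for ID1 (adjusted p = 0.111) and -0.46 for SMAD6 (adjusted p = 0.368). With Control 2 in place of Control 3 it was -0.25 for ID1 and -0.03 for SMAD6. Control 2 differed in its markers too, with an adipocyte sum of 324328 against 91683 and 96044 in the controls used, and an endothelial sum of 19216 against 82283 and 78629.

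BMP4 was the ligand with the highest log2FC against the controls. It had 276 and 181 normalized counts in the controls used and 147 in Control 2, against 187 to 695 in AT and 295 to 590 in cold lambs. With the 2 controls the log2FC was 1.08 ± 0.40 in AT (adjusted p = 0.104) and 0.97 ± 0.40 in cold lambs (adjusted p = 0.208), and neither passed. In AT lambs it passed by DESeq2's Wald test (1.08, adjusted p = 0.0482), without AT 2 (1.25, adjusted p = 0.0237) and with Control 2 in place of Control 1 (1.64, adjusted p = 0.0290), the last of which also held in cold lambs (adjusted p = 0.0483). With all 3 controls it was 1.33 in AT lambs (adjusted p = 0.0269) and 1.22 in cold lambs (adjusted p = 0.0540). ACVR1 was at 288 and 339 in the controls used and 152 in Control 2, below every AT lamb (366 to 514) and every cold lamb (414 to 540). Among all genes, however, 24.3% showed no overlap between AT lambs and the 2 controls, and 24.6% none between cold lambs and these controls. Its log2FC was 0.46 ± 0.18 in AT (adjusted p = 0.122) and 0.56 ± 0.18 in cold lambs (adjusted p = 0.120), and with all 3 controls it passed in both, at 0.81 and 0.90, as it did with TMM scaling (adjusted p = 0.0402 and 0.0431). BMP2 (-0.94 ± 0.39, adjusted p = 0.142), BMP8B (-1.05 ± 0.62) and BMPR2 (-0.64 ± 0.31) had values below 0 in AT lambs without passing.

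Between cold lambs and controls in BAT, 0 of the 10 genes passed (221 of 14905, 1.48%), by edgeR. ACVR1 and BMP4 had an unadjusted p under 0.05, as did 18.1% of all genes, and DESeq2's Wald test called 1 gene, ACVR1. ID1 had a log2FC of 0.07 ± 0.29, with a 95% interval of -0.49 to 0.64, and SMAD6 of 0.18 ± 0.29, with an interval of -0.40 to 0.76. These values rested on the controls used, since with Control 2 in place of Control 3 they were 1.12 and 1.06, with Control 2 in place of Control 1 0.54 and 0.72, and with all 3 controls 0.55 and 0.65, none of which passed. Of the 30 further pathway genes, 0 passed in cold lambs and 6 in AT lambs, against 1.48% and 9.3% of all genes tested. In AT lambs BMP6 (log2FC -1.81 ± 0.32), SMAD7 (-1.73 ± 0.28), SMAD9 (-1.42 ± 0.33), MSX1 (-1.27 ± 0.21) and ENG (-1.25 ± 0.30) were lower than in controls, and FST, which binds activins and BMPs, was higher (1.64 ± 0.47). In normalized counts, BMP6 had 849 and 961 in the controls used and 139 in Control 2 against 113 to 335 in AT lambs, and with all 3 controls it no longer passed (adjusted p = 0.0606). FST had 277 and 338, and 550.3 in Control 2, against 403 to 1934. The comparisons of AT with cold and of AT with controls share the AT lambs. Of the cell markers, 3 of 7 for smooth muscle and pericytes and 2 of 10 for endothelium were also lower in AT lambs than in controls, and 0 of 10 stromal markers passed, though all 10 had a log2FC above 0. Brown adipocyte markers summed to 22976 and 27235 in the controls used and 91981 in Control 2. In AT lambs they summed to 631 to 15985 and in cold lambs to 4677 to 16726, and 0 of 4 tested passed in either group.

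**Figure D3:**
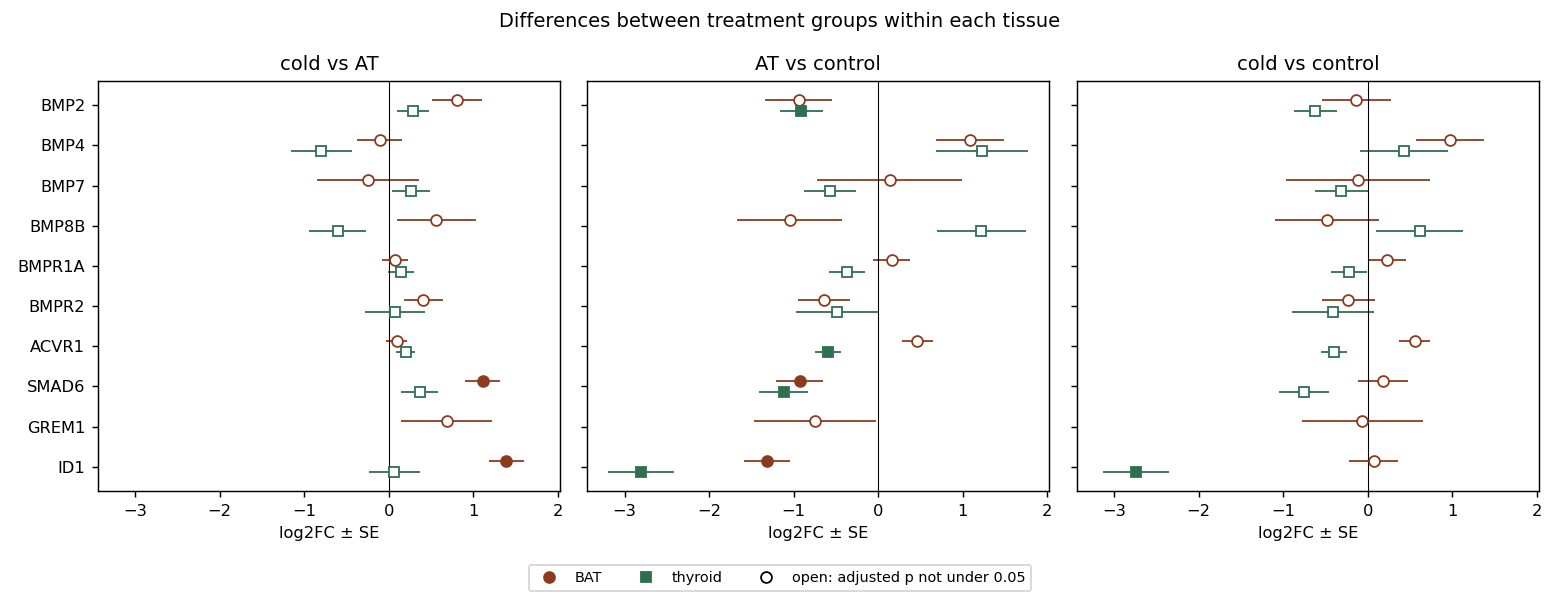
log2FC with its standard error (x axis) of the 10 genes (y axis) for the 3 comparisons of treatment groups, in BAT (circles) and thyroid tissue (squares), filled where the adjusted p was under 0.05. SMAD6 and ID1 are above 0 in BAT for cold against AT (1.11 and 1.39) and below 0 for AT against controls (-0.93 and -1.32), and ID1 in thyroid tissue lies near -2.80 and -2.74 against the controls.

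In thyroid tissue, cold and AT lambs did not differ in any gene at the threshold. None of the 9 tested genes passed, and neither did any of 16122 genes (0%), with 870 at an unadjusted p under 0.05 and 4 called by DESeq2's Wald test. ID1 was at 554, 791 and 1274 (lowest, median and highest) in AT and at 421, 810 and 1446 in cold lambs. Its log2FC was 0.07 ± 0.30, with a 95% interval of -0.53 to 0.66. SMAD6 was at 249 to 314 in AT and 284 to 460 in cold lambs (0.37 ± 0.22). BMP4 had the lowest log2FC, -0.80 ± 0.36 (unadjusted p = 0.0427, adjusted p = 0.911), and its AT values were 106 to 241 in 5 lambs and 490 in AT 3, the library with the highest sums of skeletal muscle and stromal markers. Among the further pathway genes 0 of 32 passed.

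Against the controls, ID1 was the gene of the 10 that differed most in thyroid tissue. It was at 3054 in Control 1 and 8325 in Control 3, above every treated lamb, and at 992 in Control 2, within the range of the treated lambs. Of all genes, 27.3% showed no overlap between AT lambs and the 2 controls and 34.6% none between cold lambs and these controls. The log2FC was -2.80 ± 0.39 in AT lambs (6.97-fold lower, adjusted p = 0.00117) and -2.74 ± 0.39 in cold lambs (6.66-fold lower, adjusted p = 0.00166). With all 3 controls it was -2.33 (adjusted p = 0.00586) and -2.27 (adjusted p = 0.00620). With Control 2 in place of Control 3 it was -1.31 (adjusted p = 0.0511) and -1.25 (adjusted p = 0.0562). The thyroid library of Control 2 differed in its markers, with a brown adipocyte sum of 12446 against 1566 in Control 1 and 2718 in Control 3. Its adipocyte sum was 12349, against 4469 and 3653 in the controls used. How far this affects its values was not tested.

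In AT lambs 3 further genes were lower in thyroid tissue than in controls. SMAD6 was at 304 in Control 1, 898 in Control 3 and 66.0 in Control 2, against 249 to 314 in AT lambs. Its log2FC of -1.12 ± 0.29 (adjusted p = 0.0157) thus rested on Control 3, and with Control 2 in its place the log2FC was 0.58. BMP2 was at 284 and 485 in the controls used and 274 in Control 2, against 137 to 258 in AT lambs (log2FC -0.91 ± 0.25, adjusted p = 0.0210). ACVR1 was at 3180 and 4697, and 4573 in Control 2, against 2306 to 2942 (log2FC -0.59 ± 0.15, adjusted p = 0.0151). In all, 4 of 9 genes tested passed in AT lambs and all 4 were lower, while 3382 of 16122 genes passed (21%, of which 18.7% lower and 2.23% higher). In cold lambs 1 of 9 passed, ID1, with 3110 of 16122 genes (19.3%, of which 16.9% lower and 2.34% higher).

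The scaling moved these values. With the reference genes, the median log2FC of all genes tested in thyroid tissue was -0.28 against the controls for both treated groups, and with TMM scaling it was 0.05 in AT and 0.02 in cold lambs. The 3382 calls in AT lambs were 360 higher and 3022 lower with the reference genes, and 650 higher and 758 lower with TMM scaling. In cold lambs 378 higher and 2732 lower became 628 and 802. With TMM scaling ID1 kept a log2FC of -2.42 in AT (adjusted p = 0.00320) and -2.38 in cold lambs (adjusted p = 0.00371), whereas SMAD6 (-0.72), BMP2 (-0.55) and ACVR1 (-0.24) no longer passed in AT lambs. In BAT the calls of AT lambs against controls were 469 higher and 917 lower with the reference genes, and 871 and 881 with TMM scaling, and ID1 and SMAD6 passed under both.

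**Figure D4:**
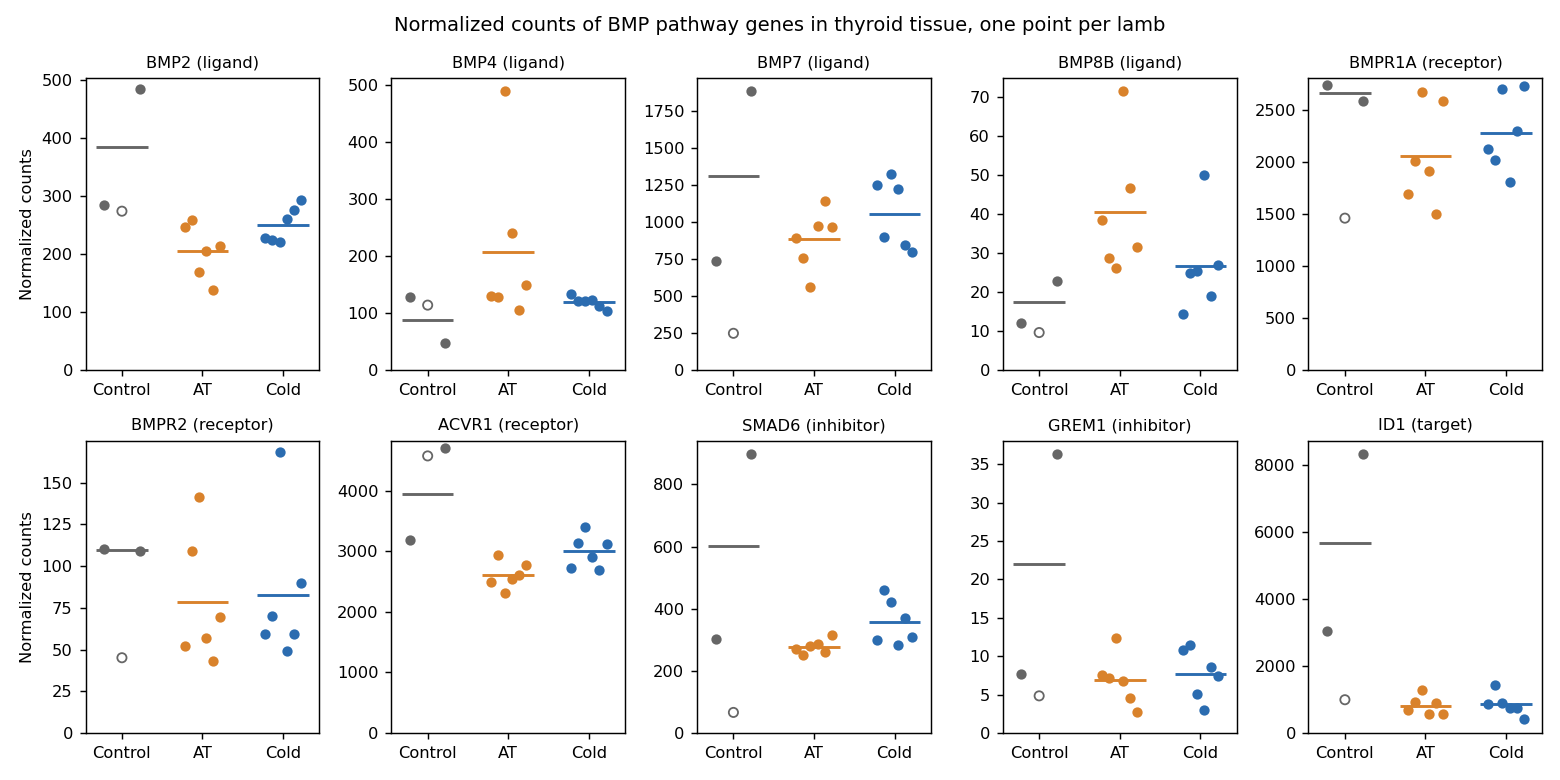
Normalized counts (y axis, linear, from 0) of the 10 genes in thyroid tissue by treatment group (x axis), 1 point per lamb, with a horizontal line at the mean of the libraries used and an open point for the control that was left out. For ID1 the 2 controls used (3054 and 8325) lie above all 12 treated lambs (421 to 1446), and the open point (992) lies among them.

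Of the 32 further pathway genes tested in thyroid tissue, 9 were lower and 0 higher in AT lambs than in controls. In cold lambs 6 were lower and 0 higher. Among all genes tested, 18.7% were lower and 2.23% higher in AT lambs, and 16.9% and 2.34% in cold lambs. The marker counts below stand beside the same shares. BMP6 had 220 and 548 normalized counts in the controls used and 32.2 in Control 2, 36.8 to 87.9 in AT and 29.3 to 82.7 in cold lambs (log2FC -2.59 ± 0.39 and -2.70 ± 0.38). ID3 had 2465 and 8539 in the controls used and 245 in Control 2 against 829 to 1713 in AT and 930 to 1715 in cold lambs (log2FC -2.16 ± 0.35 and -2.18 ± 0.34), and with all 3 controls it missed the threshold in both. ID4 was lower in AT lambs (-1.15 ± 0.34), and MSX1 in cold lambs (-2.22 ± 0.65). The thyroid libraries of the controls differed in their cell markers as well. Stromal markers summed to 12882 and 15976 in the controls and to 30321 or more in all treated lambs, and 5 of 10 were higher in AT and 4 of 10 in cold lambs than in controls. Of 6 macrophage markers 4 were higher in each treated group, of 10 endothelial markers 3 were lower in AT and 2 in cold lambs, and of 8 thyrocyte markers 3 were lower in each. Of 7 smooth muscle and pericyte markers 2 were lower in each treated group, with sums of 20590 and 46056 in the controls used and 5526 in Control 2, against 9158 to 157648 in AT, the highest in AT 3, and 9371 to 15356 in cold lambs. The endothelial sum was 36591 in Control 1 and 55581 in Control 3, against 23197 to 41899 in AT and 22931 to 30692 in cold lambs, and the part of these cells in the differences was not tested.

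Between the tissues of the same lambs most of the 10 genes differed. On a scale common to both tissues, the receptors ACVR1 and BMPR1A and the ligand BMP7 were lower in BAT than in thyroid tissue in every treatment group. BMP7 was at 16.2 to 191 in BAT and 358 to 806 in thyroid tissue of the treated lambs. Its log2FC was -3.68 ± 0.89 in controls, -2.88 ± 0.50 in AT and -3.43 ± 0.51 in cold lambs. The controls used had 86.2 and 44.0 in BAT and 457 and 1189 in thyroid tissue. Control 2 showed a much smaller gap, with 118 in BAT and 148 in thyroid tissue. Its thyroid library had the raised brown adipocyte markers given above. ACVR1 had -2.30 ± 0.21, -1.19 ± 0.12 and -1.31 ± 0.12, and BMPR1A -1.66 ± 0.27, -1.09 ± 0.15 and -1.17 ± 0.15 in the same order.

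BMP4, SMAD6 and, in the treated lambs, ID1 were higher in BAT. BMP4 was at 296 to 1159 in BAT and 62.6 to 314 in thyroid tissue of the treated lambs, with a log2FC of 2.72 ± 0.62 in controls, 2.62 ± 0.35 in AT and 3.29 ± 0.36 in cold lambs. SMAD6 had 1.30 ± 0.37, 1.54 ± 0.22 and 2.27 ± 0.22. ID1 was at 3995 and 6634 in BAT and 1892 and 5238 in thyroid tissue of the controls used, which overlapped, and at 1393 and 590 in Control 2 (0.58 ± 0.46, adjusted p = 0.345). In AT lambs it was at 1200 to 2661 in BAT and 342 to 815 in thyroid tissue (2.10 ± 0.28), and in cold lambs at 4015 to 6693 and 253 to 860 (3.42 ± 0.29, 10.7-fold). GREM1 passed in AT (1.69 ± 0.54) and cold lambs (2.19 ± 0.53), and so did BMPR2 (0.77 ± 0.30 and 1.11 ± 0.30). BMP8B passed in controls (2.10 ± 0.76) and cold lambs (1.03 ± 0.43) but not in AT lambs (-0.11 ± 0.43). In the controls used it was at 51.7 and 42.7 in BAT and at 7.53 and 14.4 in thyroid tissue. Control 2 went the other way, with 0 in BAT and 5.74 in thyroid tissue. BMP2, at 64.1 to 258 in BAT and 85.2 to 176 in thyroid tissue of the treated lambs, passed in none.

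**Figure D5:**
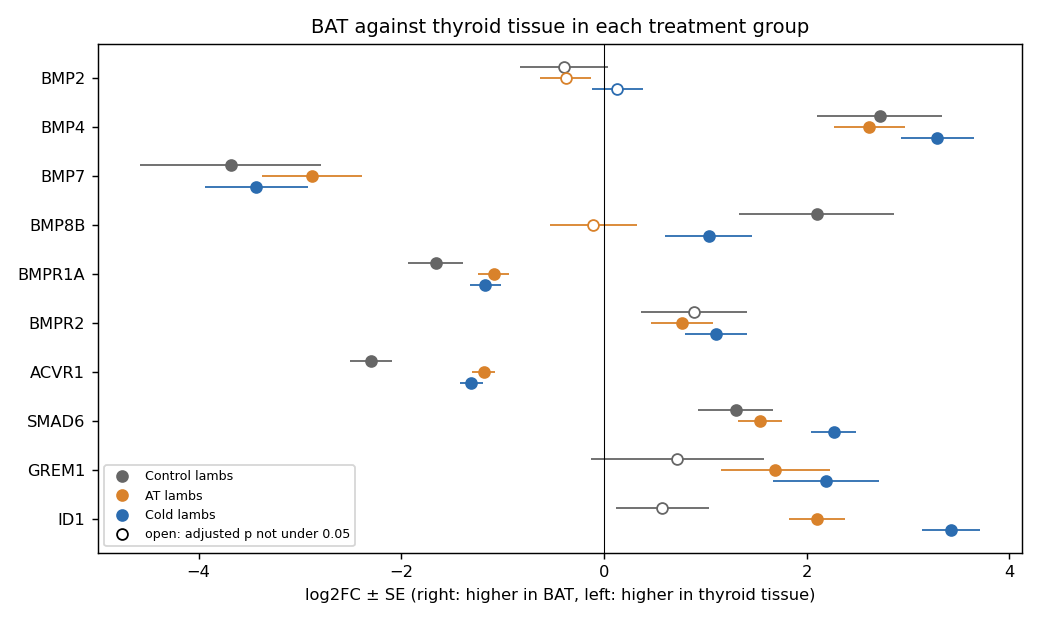
log2FC with its standard error (x axis, right of 0 higher in BAT) of the 10 genes (y axis) between BAT and thyroid tissue, separately for control, AT and cold lambs, filled where the adjusted p was under 0.05. BMP4 and SMAD6 lie right of 0 in all 3 groups (1.30 to 3.29), BMP7, ACVR1 and BMPR1A lie left of 0 in all 3 (-3.68 to -1.09), and ID1 goes from 0.58 in controls to 3.42 in cold lambs.

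The counts were 6 of 10 genes in controls (3 higher in BAT), 8 in AT (5 higher) and 9 in cold lambs (6 higher). Of all 17021 genes tested 36.4% passed in controls (18.7% higher and 17.7% lower), 63.8% in AT (43.6% and 20.2%) and 63.5% in cold lambs (42.3% and 21.2%). With TMM scaling the calls in AT lambs shifted from 7428 higher and 3432 lower to 5805 and 4946, and those in cold lambs from 7202 and 3614 to 6044 and 4752. Under the 22 alternatives BMP4, ACVR1 and BMPR1A passed in every group and in every alternative. BMP7, SMAD6 and ID1 passed in AT and cold lambs in every alternative, BMPR2 in AT lambs passed in 16 and BMP8B in cold lambs in 12. Of 33 further pathway genes tested in both tissues, 14, 22 and 21 were higher and 6, 6 and 7 lower in BAT in controls, AT and cold lambs.

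The differences of further genes were in part larger. In cold lambs BMP6 (log2FC 4.90 ± 0.32), the target gene MSX1 (4.57 ± 0.43) and BMPER, a secreted BMP regulator of the vessel wall (4.40 ± 0.48), were the highest in BAT. In AT lambs BMPER (4.79 ± 0.49), FST (3.88 ± 0.39) and KCP, a secreted chordin-like protein (3.47 ± 0.33), were. BMPER had 2 to 8 counts in thyroid tissue of the treated lambs, so its values there are imprecise, and 1 and 2 counts in that of the controls, so no fold is given for them. Besides BMPER, HEY1 (3.01 ± 0.50) and the antagonist CHRDL1 (2.96 ± 0.61) were the highest in controls. On the thyroid side, the type I receptor BMPR1B had 109 to 309 normalized counts in thyroid tissue of the treated lambs against 9.01 or fewer in their BAT, on the common scale. GDF2, also known as BMP9, was on that scale at 31.0 or less in thyroid tissue of the treated lambs and at 2.28 or less in their BAT. BMP8A was at 11.01 and 11.6 in the thyroid tissue of the controls used and at 0 and 2.15 in their BAT, which is 3 counts or fewer and gives no fold, and at 330.2 and 30.2 in Control 2. ID4 was lower in BAT in all 3 groups (-3.12 ± 0.48 in controls and -2.42 ± 0.27 in AT), and so was BMP5 (-2.33 ± 0.22 in cold lambs). Endothelial markers were higher in BAT, 9 of 10 in controls and 10 of 10 in AT and cold lambs, with a median log2FC of 1.43, 2.63 and 2.65, and their part in the differences was not tested.

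Whether the 2 tissues responded differently was tested directly, as the log2FC in BAT minus that in thyroid tissue. For cold against AT, 0 of 10 genes passed, as did 0 of 17021 genes (0%), with 1339 at an unadjusted p under 0.05 and 30 called by DESeq2's Wald test. ID1 had the largest difference of the 10, 1.32 ± 0.38 (unadjusted p = 0.00160, adjusted p = 0.298), and SMAD6 had 0.73 ± 0.30 (unadjusted p = 0.0220, adjusted p = 0.525). The higher ID1 in the BAT of cold lambs was therefore not shown to differ from the change in thyroid tissue. For cold against controls, ID1 passed with 2.85 ± 0.55 (adjusted p = 0.0278), as 1 of 10 genes and 32 of 17021 (0.188%), with a log2FC of 0.07 in BAT and -2.74 in thyroid tissue. With Control 2 in place of Control 3 the difference was 2.32 (adjusted p = 0.0566). Of the further pathway genes ID3 passed there, with a 6.50-fold difference between the 2 ratios (adjusted p = 0.0142). For AT against controls, ACVR1 passed with 1.11 ± 0.23 (adjusted p = 0.0141), as 1 of 10 genes and 283 of 17021 (1.66%), with a log2FC of 0.46 in BAT, which did not pass, and -0.59 in thyroid tissue, and with DESeq2's median-of-ratios scaling it was 0.79 (adjusted p = 0.0624). ID1 had 1.53 ± 0.53 (adjusted p = 0.128) in that comparison.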

How the data were processed

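The authors extracted RNA with TRIzol, captured mRNA with oligo(dT) beads, sequenced read pairs on the BGISEQ-500, trimmed them with Trimmomatic 0.39, aligned them with STAR 2.7.7a to Oar_rambouillet_v1.0 and deposited raw counts per gene from featureCounts (Subread 2.0.0), with reads mapping to several places included. Chromosome numbers were taken from same-named genes of the RefSeq table of another build (ARS-UI_Ramb_v3.0). Whether counting used the strand is not given in the sources used here. Counts were tested by edgeR 4.0.16 (R 4.3.3, robust quasi-likelihood, 2-sided) within each tissue (14 libraries) and in both (28), with offsets from size factors of ACTB, RPL19 and HUWE1. The 2 controls the study kept were identified because the normalized counts it gives per lamb are proportional to the counts of these 2 libraries. The genes, the pathway list and the marker lists were chosen with earlier results of these data known. Named besides the 10 genes are, per comparison, up to 3 pathway genes with the highest and 3 with the lowest log2FC that passed; SMAD1, SMAD4, SMAD5, ID2 and the uncalled values of FST, CHRDL1 and SMAD9 were added after their values were seen. The 2 tissues of a lamb were paired by its number, and in 13 of 14 lambs their deviations correlated above 0.1 (median 0.22). No correlation was computed between tissues of different lambs, so these values do not test the pairing. The 2 controls have the same value by construction, since their deviations mirror each other. Replicates are separate lambs. On simulated counts, 55% of the genes changed by a log2FC of 1 were recovered in BAT, 53% in thyroid tissue and 50% in both. The simulation gave all genes the same spread, changed only genes with higher counts and left the reference genes without noise. These rates therefore need not hold for the 10 genes. Alternatives were TMM and DESeq2 1.42.0 median-of-ratios scaling, DESeq2's Wald test, all 3 controls, other filters, the RNA integrity number as a covariate, only the 2 groups compared, the lamb as a block, a log2FC threshold of 1 and each lamb left out.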

Additional observations from a re-analysis of the deposited data

Results flagged for a closer look

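In thyroid tissue, 3 of the 40 groups of 6 lambs examined over the 10 genes and both tissues held 1 library far from the others (Dixon's gap test at its 95% critical value, which chance passes in about 1 in 20 groups). BMP4 was at 490 normalized counts in AT 3, against 106 to 241 in the other AT lambs. AT 3 also had the highest sums of skeletal muscle (3.41e+06) and stromal markers (152149) of the thyroid libraries used. BMP8B was at 49.999 in Cold 4, against 14.4 to 26.9 in the other cold lambs, and BMPR2 was at 169 in Cold 3, against 49.0 to 90.1 in the other cold lambs. Cold 4 also had the highest sum of parathyroid and C cell markers among the cold thyroid libraries, 171563 against 17743 or less. Whether these cells account for its BMP8B was not tested.

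For 2 genes the response differed between the tissues by the test of the difference itself. ID1 differed by 2.85 on the log2 scale for cold lambs against controls, with a log2FC of 0.07 in BAT and -2.74 in thyroid tissue, each from the fit of that tissue. ACVR1 differed by 1.11 for AT lambs against controls, with a log2FC of 0.46 in BAT and -0.59 in thyroid tissue. Both rest on 2 control lambs.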

How the results depend on the processing

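Of the 10 genes, 2 passed in BAT for cold against AT, and this became 0 with all 3 controls and 1 with the RNA integrity number as a covariate or with only the 2 groups compared. For BAT cold against controls, 0 became 1 with TMM or median-of-ratios scaling, DESeq2's Wald test or all 3 controls. For BAT AT against controls, 2 became 3 with TMM or median-of-ratios scaling (ACVR1 added) or DESeq2's Wald test (BMP4 added), remained 2 with all 3 controls but as BMP4 and ACVR1 in place of ID1 and SMAD6, and became 1 with no filter, filterByExpr, the RNA integrity covariate, only the 2 groups or a log2FC threshold of 1. In thyroid tissue, 1 became 2 for cold against controls with all 3 controls, and 4 became 1 for AT against controls with TMM or median-of-ratios scaling or only the 2 groups, and 2 with the log2FC threshold. For the difference between tissues, 1 became 2 for cold against controls with DESeq2's Wald test or all 3 controls, and 1 became 0 for AT against controls with median-of-ratios scaling. The cause was not tested. With the lamb as a replicate block in the comparisons between tissues, the counts stayed at 6, 8 and 9 for controls, AT and cold lambs and at 0, 1 and 1 for the differences in response, and no call changed. The within-tissue groups are different lambs, so no pairing applies there. Depth limited GREM1 in thyroid tissue and BMP8B and GREM1 in BAT, which have no value in alternatives where they fell under the filter. An exact 2-sided permutation test of cold against AT lambs, added after the data were seen and run for the 10 genes in both tissues (20 tests), gave p = 0.0368 for BMP2 in BAT and 0.0195 for SMAD6 and 0.0281 for ACVR1 in thyroid tissue. For ID1 and SMAD6 in BAT it gave 0.00216, the smallest that 924 splits can give, which follows from the lack of overlap and adds nothing to it.

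With 1 library left out in turn (Control 2 entering where a control was left out), the counts ranged from 0 to 2 for BAT cold against AT, 0 to 2 for BAT cold against controls, 1 to 3 for BAT AT against controls, 0 to 0 for thyroid cold against AT, 0 to 2 for thyroid cold against controls and 2 to 4 for thyroid AT against controls. They ranged from 4 to 6, 6 to 8 and 8 to 9 for BAT against thyroid tissue in controls, AT and cold lambs, and from 0 to 0, 1 to 2 and 1 to 2 for the differences in response (cold against AT, cold against controls and AT against controls). Over all genes named, 1101 values kept their direction and side of the threshold under the other alternatives, 49 fell below the threshold, 18 passed it and 30 changed sign, and without 1 library these numbers were 1849, 90, 14 and 59. None of the 30 had passed the test. 

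The log2FC that changed sign were the following, by setting. With TMM scaling, in cold lambs against controls, BMP7 was 0.0542 and GREM1 0.0474 in BAT, and BMP7 0.0360 and BMPR1A 0.0609 in thyroid tissue. BMP2 was -0.0930 in BAT against thyroid tissue of cold lambs, and in the tissue difference of AT against controls BMP2 was -0.31 and SMAD6 -0.12. With median-of-ratios scaling these 7 values were 0.0415, 0.0271, 0.0363, 0.0640, -0.23, -0.35 and -0.16, and BMPR2 was -0.00468 in the tissue difference of cold against controls. With all 3 controls, in cold lambs against controls, BMP2 was 0.0585, BMP8B 0.10, BMPR2 0.0694 and GREM1 0.47 in BAT, BMP7 0.14 and BMPR1A 0.00815 in thyroid tissue, and BMP7 -0.51 in the tissue difference. In AT lambs against controls, BMP7 was -0.15 in BAT and BMP4 0.24 in the tissue difference. With the RNA integrity covariate BMP7 was 0.0338 in BAT cold against AT, -0.18 in BAT AT against controls and -0.0110 in the tissue difference of cold against controls. With the replicate block, the tissue difference was -0.0927 for BMP7 in cold against controls, and -0.0895 for BMP2 and -0.00314 for SMAD6 in AT against controls.

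Without 1 library in turn, the log2FC that changed sign at least once ranged as follows. In BAT of cold against AT lambs the ranges were BMP4 -0.28 to 0.0437, BMP7 -0.75 to 0.34 and BMPR1A -0.00100 to 0.18. In BAT of cold lambs against controls the ranges were BMP2 -0.32 to 0.22, BMP7 -0.72 to 0.11, BMPR2 -0.37 to 0.34, GREM1 -0.0648 to 0.17 and ID1 -0.00476 to 1.12. In BAT of AT lambs against controls the ranges were BMP7 -0.49 to 0.33 and BMPR1A -0.0233 to 0.25. In thyroid tissue of cold against AT lambs the ranges were BMPR2 -0.26 to 0.32 and ID1 -0.15 to 0.23. In thyroid tissue of cold lambs against controls the ranges were BMP4 -0.0352 to 0.57, BMP7 -0.38 to 1.10, BMPR1A -0.28 to 0.17, BMPR2 -0.74 to 0.10 and SMAD6 -0.84 to 0.94. In thyroid tissue of AT lambs against controls the ranges were BMP7 -0.64 to 0.84, BMPR1A -0.46 to 0.0331, BMPR2 -0.73 to 0.0307 and SMAD6 -1.18 to 0.58. In BAT against thyroid tissue of AT lambs the range was BMP8B -0.46 to 0.22. In BAT against thyroid tissue of cold lambs the range was BMP2 -0.0749 to 0.29. In the tissue difference of cold against AT the ranges were BMP7 -1.14 to 0.0544 and BMPR1A -0.21 to 0.0847. In the tissue difference of cold against controls the ranges were BMP7 -1.84 to 0.53, BMPR1A -0.11 to 0.56 and BMPR2 -0.0363 to 0.61. In the tissue difference of AT against controls the ranges were BMP2 -0.30 to 0.16, BMP4 -0.28 to 0.51, BMP7 -1.25 to 1.03, BMPR1A -0.00831 to 0.70, BMPR2 -0.32 to 0.16 and SMAD6 -0.62 to 0.47. Of these, 1 had passed the test, SMAD6 in thyroid tissue of AT lambs against controls, and it changed sign without Control 3.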
